A study of Mus musculus with 24 samples.

Results

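The mitochondrial respiratory chain was followed through the lungs of newborn mice that differed in dietary selenium, oxygen exposure and age. Its genes were taken as the protein-coding genes whose symbols name subunits of complexes I to V or assembly factors of complex I. The symbols were Nduf, Sdha to Sdhd, Uqcr, Cox4 to Cox8, Atp5 and the mt- genes. Members also needed at least 5 CPM (counts-per-million) in the mean of at least 1 group. Of 57010 genes in the count table, 107 protein-coding genes had such a symbol and 103 of these reached 5 CPM. They comprised 12 genes of the mitochondrial genome and 91 nuclear genes: 37 of complex I, 8 complex I assembly factors, 4 of complex II, 8 of complex III, 17 of complex IV and 17 of complex V. The members just inside the limit were Ndufaf6 and Ndufb8, with highest group means of 5.78 and 8.38 CPM. Just outside lay mt-Nd3 at 4.87 CPM and Cox7a1 at 2.68 CPM, followed by Cox8b at 2.62 CPM and Cox7b2 at 0.144 CPM. All 103 members passed the filter of the test. Cox5b-ps, which is annotated as protein coding although its symbol marks a pseudogene copy, was kept under the rule.

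The respiratory chain passes electrons from NADH (complex I) and succinate (complex II) through complexes III and IV to oxygen, and complex V uses the resulting proton gradient to make ATP. Complexes I, III, IV and V combine subunits from the mitochondrial genome with subunits from nuclear genes, whereas complex II is wholly nuclear. Complex IV, cytochrome c oxidase, consumes the oxygen and carries several subunits as paired isoforms that differ between tissues. In the newborn lung, where breathing has just raised the oxygen supply, complexes I and III are also known sources of reactive oxygen species.

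All animals were C3H/HeN mice. Parents were fed, from before mating onward, a selenium-deficient diet (SeD, below 0.01 ppm sodium selenite) or a selenium-sufficient diet (SeS, 0.4 ppm), and pups were kept from their first day in hyperoxia (O2, FiO2 0.85) or room air (RA, FiO2 0.21). Whole perfused lungs were taken on postnatal day 3 (PN3) or day 1 (PN1), and messenger RNA was sequenced in 3 libraries for each of the 8 groups: SeD O2, SeD RA, SeS O2 and SeS RA at each age. The labels do not name litters, so p-values measure the spread between these samples. One library, SeS O2 PN1 replicate 2, is titled hyperoxia but carries the oxygen level of room air in a second label, and was analysed under its title.

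Library depth was 25985926 to 50437601 counts, of which the members took between 3.73% and 6.32%. Several libraries stood apart. In SeD O2 PN3 replicate 1 the 8 liver markers summed to 69830 CPM, where replicates 2 and 3 had 249 and 53.6 CPM, and its 10 lung epithelial and endothelial markers summed to 10426 CPM, against 16274 CPM or more in every other library. Liver markers also summed to 7669 and 4919 CPM in SeD O2 PN1 replicates 1 and 2, against 3.52 to 13.2 CPM in SeD RA PN1 libraries. In SeD RA PN1 replicates 1 and 2 olfactory and vomeronasal receptor genes, which lung should hardly express, summed to 334 and 877 CPM. These receptor genes reached 113 to 477 CPM in the 12 O2 libraries, against 22 to 46 CPM in the RA libraries other than SeD RA PN1 replicates 1 and 2. The main counts, and the SeD PN3 calls that were lost without SeD O2 PN3 replicate 1 among the genes named, are given with and without these libraries. Because all O2 libraries carried the raised receptor gene signal, no O2 result could be given without it. In whole lung, fewer cells of a type and less RNA per cell cannot be told apart.

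The mitochondrially encoded members differed widely in level, and those with a whole copy in the nuclear genome were lowest. Per kilobase of transcript, averaged over the 24 libraries, mt-Co1, the catalytic subunit of complex IV, was highest at 8386 CPM per kb. It was followed by mt-Nd1 at 7046, mt-Cytb, the cytochrome of complex III, at 6707, mt-Nd2 at 3547, mt-Nd5 at 3276 and mt-Nd4 at 1721 CPM per kb. The other complex IV and V transcripts lay far below: mt-Atp6 at 90.4, mt-Atp8 at 68.6, mt-Co2 at 52.7 and mt-Co3 at 46.4 CPM per kb. The small complex I genes mt-Nd4l and mt-Nd3 had 55.2 and 12.1 CPM per kb. mt-Nd6, the protein gene on the opposite strand of the circle, had 205 CPM per kb.

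A search of the reference genome (GRCm39, the assembly the reads were mapped to) located a 4654-base stretch of mitochondrial sequence at chr1:24650616-24655269, 99.936% identical to mitochondrial positions 6390 to 11042. It contains 6 protein genes whole: mt-Co2, mt-Atp8, mt-Atp6, mt-Co3, mt-Nd3 and mt-Nd4l. Of all 100-base windows of each gene, 100% had an exact nuclear copy for mt-Co2, mt-Atp8, mt-Atp6, mt-Co3 and mt-Nd4l, and 98.8% for mt-Nd3. The share was 60.8% for mt-Nd4, 30.8% for mt-Co1 and 3.19% for mt-Nd2, and 0 windows were copied for mt-Nd1, mt-Nd5, mt-Nd6 and mt-Cytb. For mt-Nd2 and mt-Co1 the nuclear copy with the longest overlap was another stretch, chr2:22477300-22480546, 97.362% identical to mitochondrial sequence. How the counting treated reads that match both places was not tested. The sequences are shown because they bear on which of the 12 genes can be measured. The first 90 bases of mt-Co3 (chrM:8607-8696, plus strand) and the same bases in chromosome 1 (chr1:24652963-24653052, minus strand) are identical. Across the border inside mt-Co1 (chrM:6345-6434) the nuclear stretch (chr1:24655225-24655314, minus strand) joins the mitochondrial sequence, with the copied part in capitals: 44 of the 45 bases in capitals are the same in both, against 14 of the 45 bases before the border.
mt-Co3 in mitochondrial DNA: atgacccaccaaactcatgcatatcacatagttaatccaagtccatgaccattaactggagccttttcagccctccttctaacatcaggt
mt-Co3 copy in chromosome 1: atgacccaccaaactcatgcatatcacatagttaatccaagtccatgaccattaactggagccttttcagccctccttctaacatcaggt
border in mitochondrial DNA: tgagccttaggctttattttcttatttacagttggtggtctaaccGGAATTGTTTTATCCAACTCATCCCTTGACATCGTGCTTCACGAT
border in chromosome 1: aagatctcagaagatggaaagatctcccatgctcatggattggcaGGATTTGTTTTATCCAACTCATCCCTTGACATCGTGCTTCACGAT

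**Figure D1:**
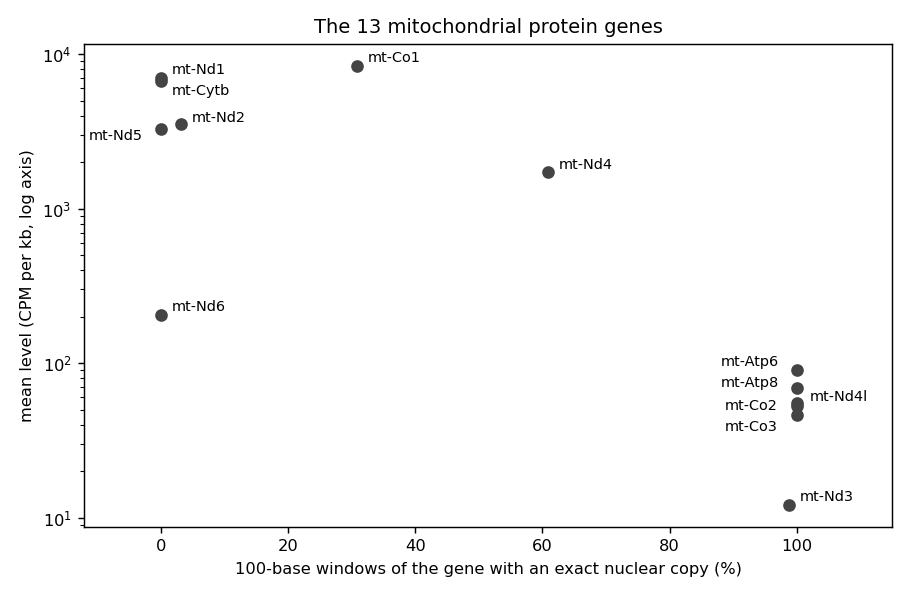
Each point is 1 of the 13 protein genes of the mitochondrial genome; the x axis gives the percentage of its 100-base windows with an exact nuclear copy and the y axis its mean level over 24 libraries in CPM per kb of gene (log axis). The 6 genes with 98.8% to 100% of windows copied lie between 12.1 and 90.4 CPM per kb, below the other 7, of which mt-Nd6 is lowest at 205 CPM per kb.

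Of the genes with whole copies, mt-Co3 and mt-Nd4l varied widely between replicates at PN1 in SeD pups, whereas mt-Co2 stayed between 24.15 and 46.01 CPM in all libraries. Levels of mt-Co3 were 230, 13.99 and 67.4 CPM in the SeD O2 PN1 lungs, against 18.8, 14.4 and 20.3 CPM in the SeD RA PN1 lungs. For mt-Nd4l they were 16.7, 8.02 and 91.04 CPM, against 8.97, 7.40 and 8.38 CPM. In both genes 2 O2 libraries were above every RA library, and the lowest O2 library was below every RA library for mt-Co3 and within the RA range for mt-Nd4l. No comparison called either gene. The sums over the mitochondrial members given in the following are almost wholly mt-Nd1, mt-Nd2, mt-Co1, mt-Cytb, mt-Nd4 and mt-Nd5, and values of the genes with whole copies are given with the limit that their reads can match both places. The same holds in part for mt-Nd4 and mt-Co1, and for a small part of mt-Nd2.

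Among nuclear members, Cox8a and Cox6a1 of complex IV had the highest mean levels per length at 230 and 218 CPM per kb, followed by the catalytic complex V subunits Atp5b at 162 and Atp5a1 at 155 CPM per kb. The lowest was Ndufaf6, a complex I assembly factor, at 0.77 CPM per kb. These levels use the full annotated exon length of each gene, which exceeds the transcript present where long alternative ends are annotated.

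The promoters of the nuclear members were searched for exact motifs of regulators, most of them known to act on respiratory chain genes. The shares were not tested. RefSeq promoter windows (GRCm38.p6, 250 bases before to 50 after each start) were matched for 74 of the 91 nuclear members. The NRF1 motif GCATGCGC, on either strand, was present in 16.2% of these genes, against 3.05% of all 27025 genes with a window. The YY1 motif AAGATGGC was in 14.9% against 3.19%, and the ERRA motif TCAAGGTCA in 2.7%, which is 2 of the 74 genes, against 0.466%. The ETS motif CCGGAAGT, bound by GABPA among others, was in 6.76% against 4.31%, and the antioxidant response element TGACNNNGC in 14.9% against 14%. The motifs in capitals do not overlap each other. The windows shown are those of Uqcr11, a complex III subunit (chr10:80406772-80407071, minus strand; ETS and NRF1 in capitals), Ndufa9, an accessory subunit of complex I (chr6:126849095-126849394, minus strand; antioxidant element and YY1 in capitals), and Sdhd, a membrane anchor of complex II (chr9:50603800-50604099, minus strand; ERRA in capitals, as its reverse complement), because all 3 genes were called higher in SeD O2 lungs at PN3. No window was matched for Ndufa4l2, Cox4i2, Cox6a2 or Uqcrq.
Uqcr11: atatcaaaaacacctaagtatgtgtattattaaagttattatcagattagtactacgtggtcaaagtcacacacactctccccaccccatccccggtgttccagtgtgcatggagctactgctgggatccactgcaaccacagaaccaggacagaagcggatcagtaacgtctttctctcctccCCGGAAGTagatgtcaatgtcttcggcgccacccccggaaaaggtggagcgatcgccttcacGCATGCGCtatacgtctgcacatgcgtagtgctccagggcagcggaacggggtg
Ndufa9: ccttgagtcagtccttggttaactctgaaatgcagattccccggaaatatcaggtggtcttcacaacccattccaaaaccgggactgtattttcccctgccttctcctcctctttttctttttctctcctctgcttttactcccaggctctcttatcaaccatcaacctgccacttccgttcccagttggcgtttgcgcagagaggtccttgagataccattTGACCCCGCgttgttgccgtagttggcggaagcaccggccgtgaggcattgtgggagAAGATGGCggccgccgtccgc
Sdhd: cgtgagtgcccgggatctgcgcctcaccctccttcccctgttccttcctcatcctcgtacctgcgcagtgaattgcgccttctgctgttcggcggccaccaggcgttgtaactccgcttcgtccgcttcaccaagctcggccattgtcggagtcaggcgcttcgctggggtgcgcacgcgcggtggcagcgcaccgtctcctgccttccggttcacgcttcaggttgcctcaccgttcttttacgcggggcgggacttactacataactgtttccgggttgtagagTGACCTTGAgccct

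To determine whether hyperoxia changed the respiratory chain after 3 days, O2 lungs were compared with RA lungs within each diet. In SeD pups 36 members rose and 2 fell, and in SeS pups 11 rose and 2 fell. Calls required an adjusted p below 0.05 in edgeR's quasi-likelihood test, Benjamini-Hochberg adjusted over all 23831 genes tested, with an absolute log2 fold change above 0.25. In SeD pups the members called made up 35% higher and 1.94% lower, where 23.8% of all genes were called higher and 12.3% lower. In SeS pups they made up 10.7% higher and 1.94% lower, where 15.9% of all genes were called higher and 11.6% lower. Many of the genes called higher overall were scarce: of the 13329 genes tested with at least 5 CPM in a group mean, as the members have, 10.1% were called higher and 19.6% lower in SeD pups, and 4.46% higher and 18.9% lower in SeS pups.

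The median log2 fold change over the members was 0.285 in SeD pups and 0.208 in SeS pups, with 96 and 89 of 103 members above 0. The median over all genes tested was 0.05 in SeD pups and 0.042 in SeS pups, and over genes with at least 5 CPM it was -0.083 and -0.091. In SeD pups 59 of 103 members were higher in every O2 library than in every RA library, a pattern found in 25.7% of all genes, and 3 were lower, found in 17.6% of all genes. In SeS pups 38 members were higher without overlap and 4 lower, against 28.4% and 21.5% of all genes. By complex, members called higher in SeD pups were 13 of 37 in complex I, 1 of 4 in complex II, 3 of 8 in complex III, 9 of 17 in complex IV and 8 of 17 in complex V, together with 2 of the 12 mitochondrial genes. In SeS pups they were 3, 0, 1, 2 and 2, with 3 mitochondrial genes. Of the 8 assembly factors 0 were called by edgeR at PN3 in either diet and 0 had an unadjusted p below 0.05, and their medians were 0.13 in SeD pups and 0.083 in SeS pups. Receptor gene sums at PN3 were 248 to 477 CPM in O2 lungs, against 22 to 46 CPM in RA lungs. The lung epithelial and endothelial markers, none of them at 0, summed to 22822 to 24348 CPM in SeS O2 lungs against 16274 to 19570 CPM in SeS RA lungs, without overlap, and to 10426, 22286 and 27185 CPM in SeD O2 lungs against 16315 to 20992 CPM in SeD RA lungs. Most of the SeS sums was the surfactant gene Sftpc, at 13783, 13057 and 14876 CPM under O2 against 8524, 9056 and 9839 CPM in RA. The endothelial marker Cdh5 was lower in every O2 library, at 578, 688.8 and 617 CPM against 957.2, 758.1 and 1057 CPM in SeS pups. In SeD pups Cdh5 was at 378.9, 644.3 and 431.8 CPM against 796.3, 974.2 and 935.5 CPM. The part of the receptor genes and of these markers in the shift of the members was not tested. Across both diets 7 members were called higher in each: mt-Nd1, mt-Nd2, Atp5c1, Atp5mpl, Cox7a2, Ndufa7 and Ndufa9. Of these, Atp5c1 lost its SeD call without SeD O2 PN3 replicate 1 (0.27, adjusted p = 0.0948, edgeR).

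**Figure D2:**
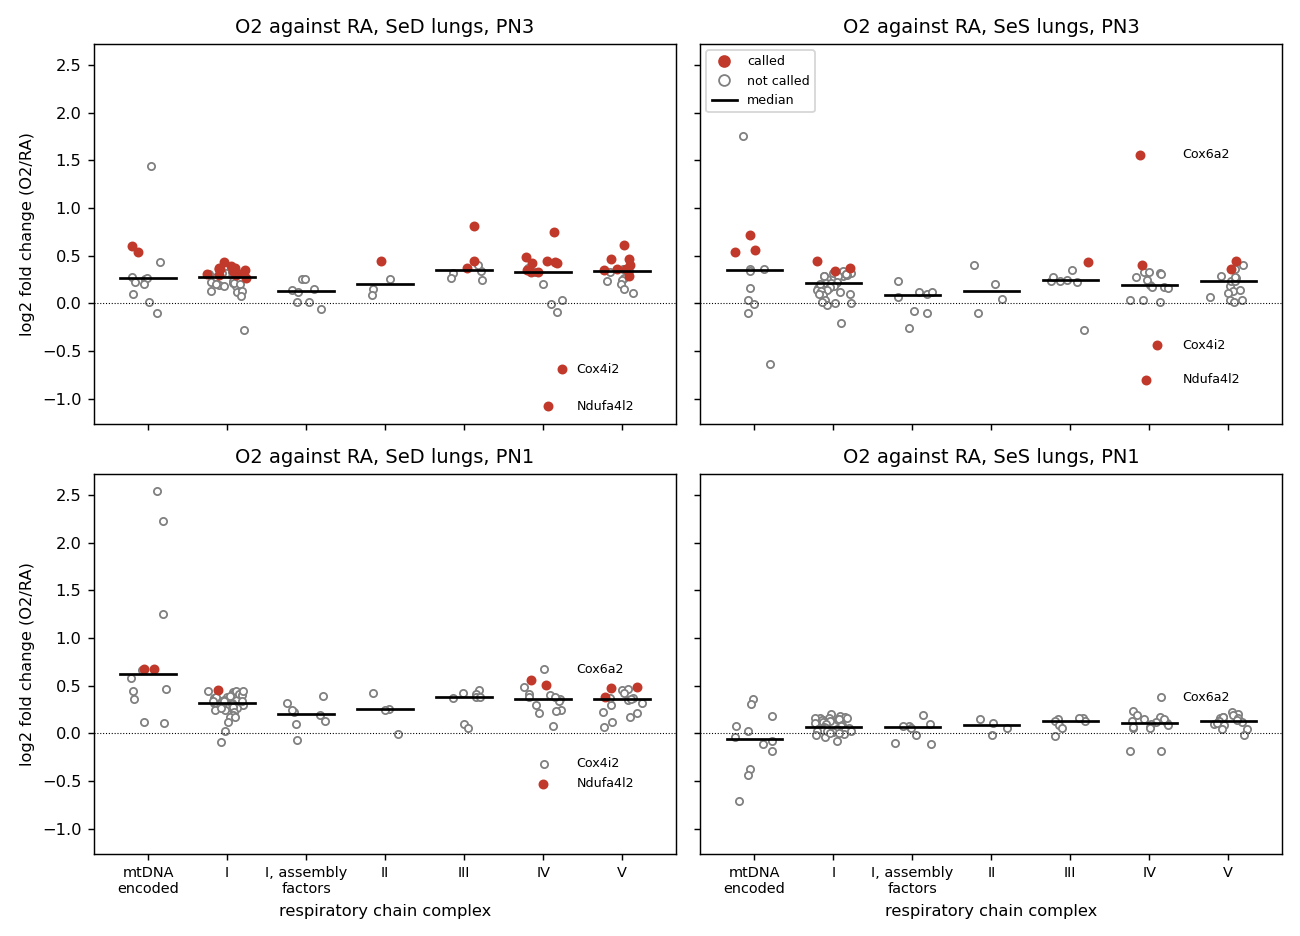
Each point is 1 of the 103 members, placed by complex on the x axis, with its log2 fold change of O2 over RA lungs on the y axis; filled red points were called, open points were not, and bars are the median of each class. At PN3 most points lie above 0 in both diets, with 36 called higher in SeD and 11 in SeS, while Ndufa4l2 and Cox4i2 lie below.

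Without SeD O2 PN3 replicate 1, the library rich in liver RNA, 25 members were called higher and 2 lower in SeD pups, 22 of the 27 being among those called with it, and the median was 0.244. In that fit 17.1% of all genes, and 6.72% of those with at least 5 CPM, were called higher. The count of members called in SeS pups was 34 in that same fit. Other single libraries mattered too: the SeD count was 17 without SeD RA PN3 replicate 1 and 11 without SeD RA PN3 replicate 2, and the SeS count was 4 without SeS O2 PN3 replicate 3 or SeS RA PN3 replicate 1 and 30 without SeD RA PN1 replicate 2. A fit of only the 2 groups compared called 15 members in SeD pups and 46 in SeS pups, so the order of the diets by count turned round, and DESeq2 called 69 and 43. Apart from the SeD fit without SeD O2 PN3 replicate 1, shares of all genes called in these fits are not given. These counts therefore cannot tell a change in the members from a change over all genes.

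Summed levels told the same in linear units. The 91 nuclear members summed to 11252, 9114 and 9503 CPM in SeD O2 PN3 lungs, against 7837, 7978 and 8594 CPM in SeD RA PN3 lungs. In SeS pups the nuclear sums were 8187, 9364 and 9917 CPM under O2, against 7961, 8361 and 7808 CPM in RA. The groups did not overlap in SeD pups, and in SeS pups 1 O2 library lay within the RA range. The 12 mitochondrial members summed to 40860 to 50580 CPM in SeD O2 lungs, against 32875 to 33995 CPM in SeD RA lungs. They summed to 42081 to 48710 CPM in SeS O2 lungs, against 30061 to 36521 CPM in SeS RA lungs, with no overlap in either diet. The ratio of mitochondrial to nuclear sums was 4.46 ± 0.0533 in SeD O2 and 4.13 ± 0.2 in SeD RA, and 5.05 ± 0.123 in SeS O2 against 4.08 ± 0.514 in SeS RA (SD, n = 3 each).

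**Figure D3:**
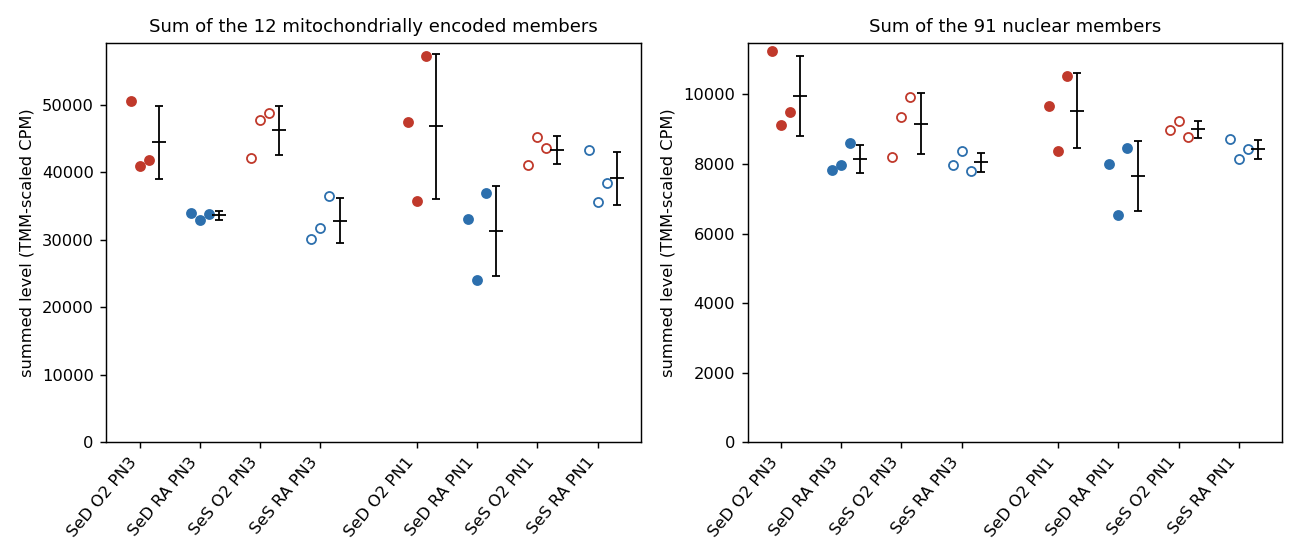
Points are libraries (filled, SeD; open, SeS; red, O2; blue, RA) and bars are the mean and SD of 3, for the summed level in TMM-scaled CPM of the 12 mitochondrially encoded members (left) and the 91 nuclear members (right). At PN3 the O2 libraries lie at 40860 CPM or more in the mitochondrial sum, above all RA libraries of that age; SeD RA PN1 replicate 2 is lowest in both panels, at 23980 and 6530 CPM.

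Of the mitochondrial genes, mt-Nd1, a core subunit of complex I, had 8792, 7637 and 7677 CPM in SeD O2 PN3 lungs, against 5190, 5186 and 5496 CPM in SeD RA PN3 lungs. In SeS pups it had 7467, 8684 and 9277 CPM under O2, against 4732, 5171 and 5579 CPM in RA. Every O2 library was above every RA library. The log2 fold changes were 0.60 (SE 0.171, adjusted p = 0.00976, edgeR) in SeD and 0.72 (SE 0.171, adjusted p = 0.00672) in SeS. mt-Nd2, another core subunit of complex I, changed by 0.54 in both diets (SE 0.156 each; adjusted p = 0.0106 in SeD and 0.0166 in SeS, edgeR). mt-Co1 rose in SeS pups, with 14614, 16089 and 15951 CPM under O2 against 9547, 10451 and 11766 CPM in RA (log2 fold change 0.56, SE 0.178, adjusted p = 0.0268, edgeR). In SeD pups mt-Co1 did not pass the test, at 0.43 (SE 0.178, adjusted p = 0.0661). Other abundant mitochondrial transcripts did not pass either: mt-Cytb, mt-Nd4 and mt-Nd5 were at 0.28, 0.26 and 0.27 in SeD and at 0.36, 0.36 and 0.34 in SeS. mt-Nd6 was at 0.01 and 0.04, and of the genes with whole copies mt-Co2 was at -0.10 and 0.16, mt-Atp6 at 0.22 and -0.64, mt-Atp8 at 0.10 and -0.10, mt-Nd4l at 1.44 and -0.01, and mt-Co3 at 0.20 and 1.76, the SeD value before the SeS value.

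Of the nuclear members, the highest in SeD pups was Uqcrq, a small subunit of complex III (chr11:53318749-53322047, minus strand, GRCm39). It had 177, 78.6 and 85.9 CPM in SeD O2 lungs, against 61.8, 61.7 and 71.5 CPM in SeD RA lungs (log2 fold change 0.81, SE 0.206, adjusted p = 0.00551, edgeR). All 3 O2 libraries were above the RA libraries, but the highest was the liver-rich library, and without it the change was 0.36 (SE 0.118, adjusted p = 0.0296). Cox6b2, the testis-type form of a complex IV subunit, had 7.54, 13.8 and 8.95 CPM in SeD O2 lungs, against 4.93, 6.48 and 6.62 CPM in SeD RA lungs (log2 fold change 0.75, SE 0.193, adjusted p = 0.00598, edgeR). Its common form Cox6b1 had 138, 128 and 128 CPM, against 95.2, 93.5 and 103 CPM (0.43, SE 0.123, adjusted p = 0.0102). Both forms were higher in every O2 library. Atp5g1, 1 of the genes for the proton-carrying c subunit of complex V, was 77.0 CPM in the liver-rich library and 42.8 and 38.2 CPM in the other 2, against 32.7, 32.6 and 38.0 CPM in SeD RA lungs. Its change of 0.61 (SE 0.179, adjusted p = 0.0116, edgeR) became 0.26 without that library and was no longer called (adjusted p = 0.117).

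Changes that did not rest on that library included Cox5a of complex IV and Uqcr11 of complex III. Cox5a had 95.5, 73.2 and 68.2 CPM in SeD O2 lungs, against 56.1, 58.3 and 58.97 CPM in SeD RA lungs (0.45, SE 0.103, adjusted p = 0.00317, edgeR; 0.32 without the library, adjusted p = 0.0113). Uqcr11, whose promoter is shown above, had 102, 80.8 and 86.5 CPM, against 62.7, 63.1 and 71.1 CPM (0.45, SE 0.103, adjusted p = 0.00322, edgeR). All O2 libraries were above all RA libraries for both genes, and Uqcr11 stayed called without the library (0.37, adjusted p = 0.0107).

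In SeS pups Atp5mpl, a small subunit of complex V, had 47.1, 50.1 and 54.4 CPM under O2, against 37.6, 38.8 and 35.3 CPM in RA (0.44, SE 0.121, adjusted p = 0.0131, edgeR). Ndufa9 had 89.2, 111 and 110 CPM, against 73.3, 80.5 and 75.8 CPM (0.44, SE 0.122, adjusted p = 0.0141). Uqcrc2, a core subunit of complex III, had 178, 210 and 218 CPM, against 147, 152 and 154 CPM (0.43, SE 0.133, adjusted p = 0.0232). The groups did not overlap in any of the 3 genes.

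In complex II, which also serves the citric acid cycle, 1 of 4 subunits was called in SeD pups and 0 by edgeR in SeS pups, where 1 had an unadjusted p below 0.05. Sdhd had 172, 112 and 114 CPM in SeD O2 PN3 lungs, against 93.6, 97.2 and 99.9 CPM in SeD RA PN3 lungs (0.45, SE 0.155, adjusted p = 0.027, edgeR), and without the liver-rich library it was no longer called (0.25, adjusted p = 0.173). In SeS pups it was at 0.40 (adjusted p = 0.0622). The catalytic subunits Sdha and Sdhb and the anchor Sdhc were at 0.15, 0.26 and 0.09 in SeD pups and at 0.05, 0.20 and -0.10 in SeS pups, none of them called.

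Ndufa4l2, the paralog of the complex IV subunit Ndufa4 and a known target of the hypoxia-inducible factor HIF-1, fell in O2 lungs of both diets at PN3. The gene lies at chr10:127350818-127353038 on the plus strand (GRCm39). It had 10.4, 12.3 and 12.4 CPM in SeD O2 lungs, against 21.4, 25.98 and 26.8 CPM in SeD RA lungs (log2 fold change -1.08, SE 0.137, adjusted p = 1.05e-04, edgeR). In SeS pups it had 15.6, 15.6 and 17.9 CPM under O2, against 28.7, 27.7 and 29.3 CPM in RA (-0.80, SE 0.136, adjusted p = 0.00112). The O2 and RA libraries were far apart in both diets. Both calls held under every alternative run, including each left-out library. Ndufa4 itself was at 0.33 in SeD pups (SE 0.156, adjusted p = 0.108) and at 0.31 in SeS pups (SE 0.156, adjusted p = 0.14).

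Cox4i2, the lung isoform of subunit 4 of complex IV, whose expression is known to respond to oxygen (chr2:152595625-152606959, plus strand, GRCm39), had 16.3, 21.3 and 26.2 CPM in SeD O2 PN3 lungs, against 28.99, 35.5 and 38.5 CPM in SeD RA PN3 lungs (-0.69, SE 0.16, adjusted p = 0.00335, edgeR). In SeS pups it had 21.96, 27.9 and 32.7 CPM under O2, against 36.6, 37 and 38.4 CPM in RA (-0.44, SE 0.159, adjusted p = 0.0443). No O2 library reached the RA range of its diet. The ubiquitous isoform Cox4i1 was at 0.20 in SeD pups (adjusted p = 0.142) and at 0.02 in SeS pups (adjusted p = 0.903). Leaving out any 1 of 5 of the 6 SeS PN3 libraries ended the call of Cox4i2 in SeS pups, as did leaving out any 1 of 7 libraries of other groups, and in SeD pups the gene was not called by a fit of the 2 groups alone.

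Some genes known from mural cells, the pericytes and smooth muscle of vessels, were looked at beside Ndufa4l2 and Cox4i2. Because of how they were chosen, their direction is not independent evidence. The 6 genes Pdgfrb, Cspg4, Notch3, Rgs5, Higd1b and Kcnk3, chosen after their values were seen, summed to 218 to 360 CPM in SeD O2 PN3 lungs, against 479 to 621 CPM in SeD RA PN3 lungs, and to 341 to 389 CPM in SeS O2 PN3 lungs, against 558 to 662 CPM in SeS RA PN3 lungs. None of the 6 was at 0 in any library. Of them 5 were called lower in each diet, Rgs5 being the exception, with Pdgfrb at -1.17 in SeD and -1.12 in SeS pups. In these comparisons 12.3% and 11.6% of all genes were called lower in SeD and SeS pups. Of genes with at least 5 CPM it was 19.6% and 18.9%. Their part in the fall of the complex IV isoforms was not tested.

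Cox6a2, the heart and skeletal muscle isoform of a complex IV subunit (chr7:127804607-127805559, minus strand, GRCm39), had the largest log2 fold change of the members called in SeS pups at PN3, with 19.3, 24.9 and 28.1 CPM under O2 against 8.84, 5.78 and 9.88 CPM in RA (1.56, SE 0.426, adjusted p = 0.0126, edgeR). In SeD pups it had 7.46, 11.8 and 15.5 CPM under O2 against 10.7, 7.77 and 16.7 CPM in RA (-0.01, adjusted p = 0.984). The groups were apart in SeS pups and overlapped in SeD pups, and the difference between the diets' changes was -1.58 (SE 0.594, adjusted p = 0.466, edgeR). The 9 heart muscle markers summed to 417, 636 and 619 CPM in the same SeS O2 libraries, against 336, 177 and 431 CPM in SeS RA, and the 8 skeletal muscle markers to 480, 47.7 and 52.4 CPM, against 38.7, 32.2 and 36.4 CPM. The heart marker sums of SeS O2 and SeS RA overlapped, and the skeletal muscle sums did not. In SeS O2 replicates 2 and 3, however, most of the skeletal sum was Ckm, at 34.23 and 33.03 CPM, against 16.34, 8.984 and 21.1 CPM in SeS RA. In these replicates Mylpf, Tnnt3 and Myh8 were below every SeS RA library. Acta1 was at 5.227 and 9.888 CPM, against 7.289, 5.723 and 5.203 CPM. Only SeS O2 replicate 1 was high in Mylpf, at 85.01 CPM, so the separation rested on Ckm in the others. The highest Cox6a2 of all libraries, 37.3 CPM, was in SeD O2 PN1 replicate 1, which also had the highest heart marker sum, 1999 CPM. The next highest heart marker sums, 937, 887 and 720 CPM, were in SeD RA PN1 replicate 2, SeS RA PN1 replicate 1 and SeD RA PN3 replicate 3, where Cox6a2 was 15.4, 16.8 and 16.7 CPM. No marker of either list was at 0 in any library, and their part in the change of Cox6a2 was not tested. The other isoform, Cox6a1, was at 0.35 in SeD pups (adjusted p = 0.0151, not called without the liver-rich library) and at 0.04 in SeS pups (adjusted p = 0.839).

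Of the other isoform sets, Cox7a2 rose in both diets at PN3, by 0.42 in SeD pups (SE 0.143, adjusted p = 0.026, edgeR) and 0.40 in SeS pups (SE 0.143, adjusted p = 0.0443), and its muscle form Cox7a1 was below the level rule. Cox7a2l, a factor of supercomplex assembly, was at -0.09 in SeD pups (adjusted p = 0.711) and 0.28 in SeS pups (adjusted p = 0.189). Cox8a was at 0.33 in SeD pups (SE 0.0981, adjusted p = 0.0119) and 0.19 in SeS pups (adjusted p = 0.158), and the muscle form Cox8b was below the level rule.

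**Figure D4:**
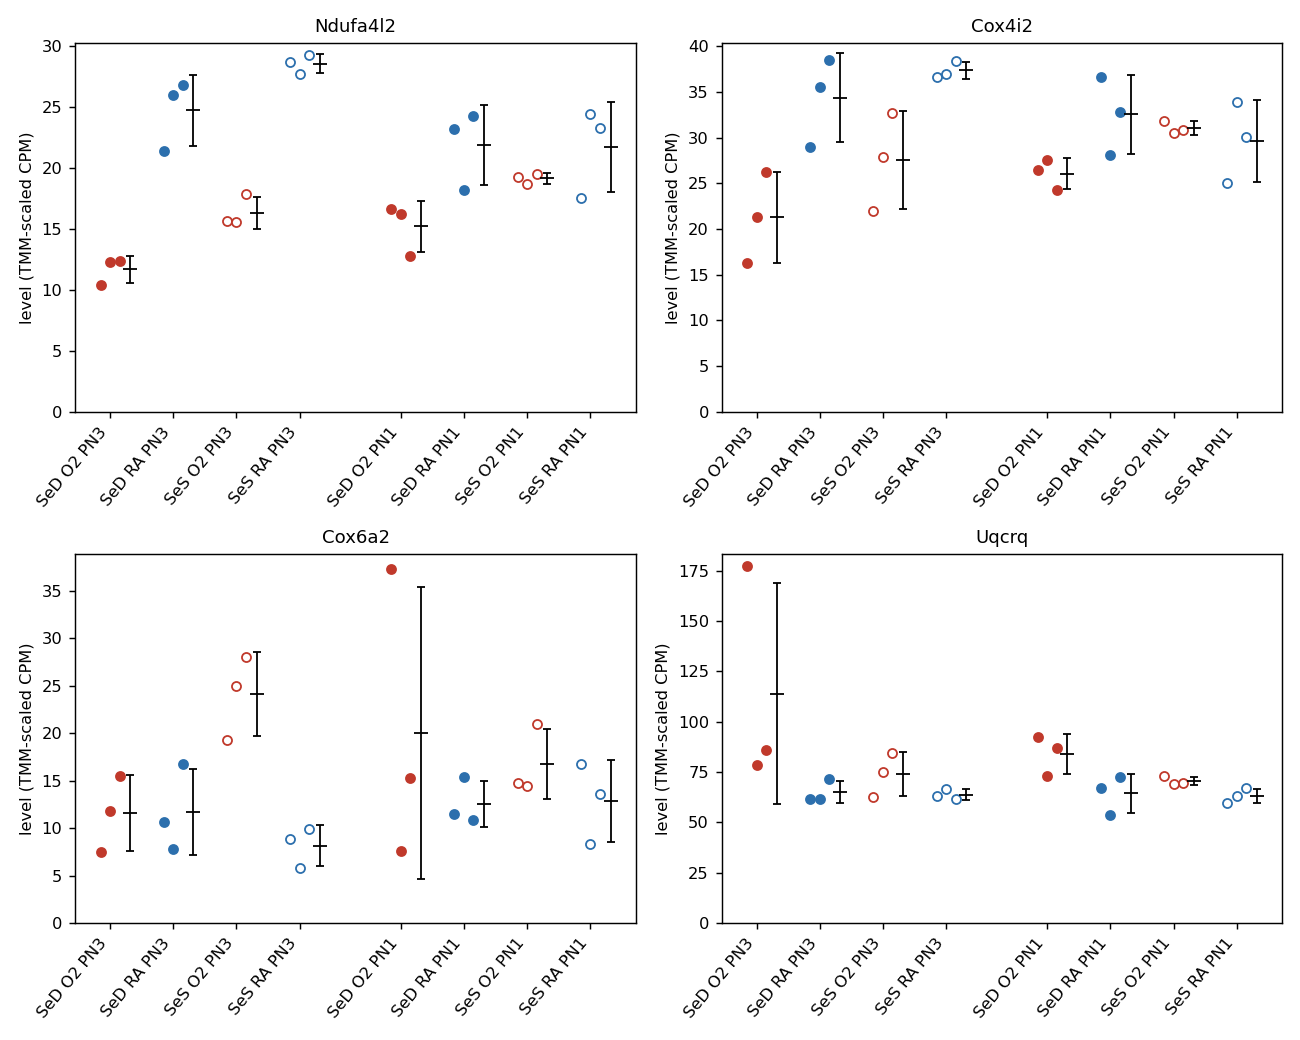
Points are libraries (filled, SeD; open, SeS; red, O2; blue, RA) and bars are the mean and SD of 3, for 4 complex III and IV members in TMM-scaled CPM. Ndufa4l2 and Cox4i2 are lower in the O2 libraries of both diets at PN3; Cox6a2 is higher in SeS O2 libraries (19.3 to 28.1 CPM) than in SeS RA libraries; 1 library, at 177 CPM, carries the highest level of Uqcrq.

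After 1 day of hyperoxia the 2 diets gave different counts of calls. In SeD pups 8 members rose and 1 fell, or 7.77% and 0.971% of the members, where 1.34% and 1.01% of all genes were called higher and lower. In SeS pups 0 members were called in either direction by edgeR and 0 by DESeq2, 4 had an unadjusted p below 0.05, and 0.0252% and 0.0126% of all genes were called higher and lower. The median log2 fold change was 0.345 in SeD pups, with 98 of 103 members above 0, and 0.09 in SeS pups, with 84 members above 0. Over all genes it was 0.006 in SeD and 0.053 in SeS pups. Over the 13329 genes with at least 5 CPM it was 0.11 in SeD pups, with 8713 above 0 and 2.2% called higher, and 0.003 in SeS pups. In SeD pups 32 members were higher in every O2 library than in every RA library and 2 lower, against 13.1% and 8.18% of all genes. In SeS pups 33 were higher without overlap and 4 lower, against 19.7% and 6.06% of all genes. In SeS pups the 3 members with the smallest p were Atp5g2 at 0.22 (adjusted p = 0.165, edgeR), mt-Nd6 at -0.37 (adjusted p = 0.278) and mt-Co2 at -0.44 (adjusted p = 0.3).

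The members called higher in SeD pups at PN1 were mt-Nd1, mt-Nd2, Cox7a2, Cox6b1, Atp5o, Atp5c1, Ndufa7 and Atp5g2, 6 of which were also called in SeD pups at PN3. mt-Nd1 had 7997, 6343 and 10370 CPM in SeD O2 PN1 lungs, against 5140, 3955 and 6344 CPM in SeD RA PN1 lungs (0.68, SE 0.171, adjusted p = 0.0417, edgeR). Cox6b1 had 138, 114 and 160 CPM, against 106, 78.3 and 105 CPM (0.51, SE 0.123, adjusted p = 0.0357). For mt-Nd1 the lowest O2 library was just below the highest RA library, and for Cox6b1 the groups did not overlap.

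mt-Nd2 rose by 0.68 (SE 0.156, adjusted p = 0.0309, edgeR), Cox7a2 by 0.56 (SE 0.143, adjusted p = 0.0433), and Atp5o, a stalk subunit of complex V, by 0.49 (SE 0.117, adjusted p = 0.0329). Atp5c1, the central shaft of complex V, rose by 0.48 (SE 0.114, adjusted p = 0.0317), Ndufa7, an accessory subunit of complex I, by 0.45 (SE 0.117, adjusted p = 0.0458), and Atp5g2 by 0.38 (SE 0.0834, adjusted p = 0.0233). Ndufa4l2 fell, with 16.6, 16.2 and 12.8 CPM in SeD O2 PN1 lungs against 23.2, 18.2 and 24.3 CPM in SeD RA PN1 lungs (-0.53, SE 0.136, adjusted p = 0.0455). Adjusted p-values of the 9 members lay between 0.0233 and 0.0458.

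The PN1 count in SeD pups depended on single libraries. Receptor gene sums were 334, 877 and 30.1 CPM in SeD RA PN1 replicates 1, 2 and 3, against 139 to 242 CPM in SeD O2 PN1 lungs. SeD RA PN1 replicate 2, with the highest receptor gene sum, had the lowest nuclear and mitochondrial sums of all libraries, 6530 and 23980 CPM, and without it 0 members rose, 1 fell and the median was 0.17. Without SeD O2 PN1 replicate 1 the count was 0, and without SeD O2 PN3 replicate 1 it was 51. Tissue markers also differed between the groups compared. Liver markers summed to 7669, 4919 and 283 CPM in SeD O2 PN1 replicates 1, 2 and 3, against 3.52 to 13.2 CPM in SeD RA PN1 lungs. Replicate 1 of SeD O2 PN1 also had the highest heart marker sum, 1999 CPM. The part of the receptor gene signal and of liver and heart RNA in these levels was not tested.

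To determine whether the respiratory chain differed with selenium deficiency, in room air or under hyperoxia, SeD lungs were compared with SeS lungs in each gas and at each age. No member passed the test in any of the 4 comparisons. In O2 at PN3, where 0.856% of all genes were called higher and 0.373% lower, 0 members were called by edgeR and 10 by DESeq2, and 18 had an unadjusted p below 0.05. The member with the smallest p was Ndufa4l2, with 10.4, 12.3 and 12.4 CPM in SeD O2 lungs, against 15.6, 15.6 and 17.9 CPM in SeS O2 lungs (-0.48, SE 0.137, adjusted p = 0.0638, edgeR). Its libraries did not overlap, and the difference between the O2 changes of the 2 diets was -0.28 (SE 0.192, adjusted p = 0.744). Ndufab1, the mitochondrial acyl carrier protein, was at 0.42 (SE 0.119, adjusted p = 0.0644), with 72.7 CPM in the liver-rich library and 50.2 and 47.8 CPM in the other 2, against 39.9, 42.4 and 45.4 CPM. Cox7a2l was at -0.51 (SE 0.158, adjusted p = 0.0896).

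In room air at PN3, where 0% of all genes were called higher and 0.0126% lower, 0 members were called by either tool and 1 had an unadjusted p below 0.05, mt-Atp6 at -0.97 (SE 0.405). The next were Cox4i1 at -0.17 (SE 0.104) and Ndufb2 at 0.19 (SE 0.117). In room air at PN1, where 13.3% of all genes were called higher and 1.3% lower, 0 members were called by either tool and 4 had an unadjusted p below 0.05. Here 94 of 103 members were below 0, with a median of -0.133 against -0.016 over all genes. Genes with at least 5 CPM had a median of -0.09 with 9490 of 13329 below 0, and 0.263% of them were called higher and 2.09% lower. The members with the smallest p were mt-Nd4 at -0.39 (adjusted p = 0.135, edgeR), mt-Co1 at -0.38 (adjusted p = 0.18) and Uqcrc2 at -0.28 (adjusted p = 0.192). Levels of mt-Nd4 were 2021, 1416 and 2173 CPM in SeD RA PN1 lungs, against 2641, 2308 and 2416 CPM in SeS RA PN1 lungs, the lowest in replicate 2 with its high receptor gene sum. In O2 at PN1, where 0% and 0.0126% of all genes were called higher and lower, 0 members were called by either tool and 6 had an unadjusted p below 0.05, led by mt-Co3 at 2.22, Ndufa8 at 0.28 and Ndufs7 at 0.24 (adjusted p = 0.989 each, edgeR).

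The test of whether the O2 change differed between diets called 0 members at PN3 and 0 at PN1, with DESeq2 also at 0, and called 0% of all genes at either age. Unadjusted p-values below 0.05 were found for 4 members at PN3 and 9 at PN1. The larger count of calls in SeD pups is therefore not shown to be a difference between the diets. Behind Cox6a2, the members with the smallest p at PN3 were Uqcrc1 at 0.53 (SE 0.238, adjusted p = 0.582, edgeR) and Ndufab1 at 0.37 (SE 0.168, adjusted p = 0.585). At PN1 they were mt-Nd4l at 2.94 (SE 1.06, adjusted p = 0.142), mt-Co3 at 2.65 (SE 0.979, adjusted p = 0.151) and Ndufb6 at 0.36 (SE 0.148, adjusted p = 0.199).

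Between PN3 and PN1 lungs 0 members were called within any diet and gas by edgeR. In SeD RA lungs, where 5.22% of all genes were called higher and 16.5% lower at PN3, 1 member had an unadjusted p below 0.05, Ndufs5 at 0.23 (adjusted p = 0.117), and DESeq2 called 0. Of genes with at least 5 CPM, 8.62% were called higher and 1.42% lower in that comparison. In SeS RA lungs 0.684% of all genes were higher and 0.327% lower, 2 members had an unadjusted p below 0.05 and DESeq2 called 1. These 2 were Ndufa4l2 and Cox4i2, at 0.39 (SE 0.135, adjusted p = 0.171, edgeR) and 0.33 (SE 0.159, adjusted p = 0.37). Levels of Ndufa4l2 were 28.7, 27.7 and 29.3 CPM at PN3, against 17.6, 24.5 and 23.3 CPM at PN1, without overlap. In SeD O2 lungs 0.311% of all genes were higher and 2.26% lower, 15 members had an unadjusted p below 0.05 and DESeq2 called 8, with Atp5g2 at -0.30 (adjusted p = 0.0578, edgeR) and Cox7a2l at -0.54 (adjusted p = 0.0701) foremost. In SeS O2 lungs 0.0839% were higher and 0.0965% lower, 2 members had an unadjusted p below 0.05 and DESeq2 called 0, with mt-Nd6 at 0.43 (adjusted p = 0.385) and mt-Co3 at 1.46 (adjusted p = 0.496) foremost. The 4 age comparisons share their libraries with the gas comparisons.

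Genes around the respiratory chain were examined in 5 lists, read against the shares of all genes called, 23.8% higher and 12.3% lower in SeD pups and 15.9% and 11.6% in SeS pups at PN3. In SeD O2 PN3 lungs 8 of 14 mitochondrial stress genes rose, 5 of 50 assembly factors and carriers outside the symbol rule, 3 of 18 genes of mitochondrial DNA upkeep and expression, 4 of 17 citric acid cycle genes, and 4 of 18 regulators, of which 4 others fell. Of the 5 shares called higher, only that of the stress genes, 57.1%, was above the share of all genes, and the regulators called lower made up 22.2%. Of genes with at least 5 CPM, 10.1% were called higher and 19.6% lower in SeD pups, and 4.46% and 18.9% in SeS pups. Beside that SeD share, citric acid cycle genes (23.5%), regulators (22.2%) and mitochondrial DNA genes (16.7%) were also called higher more often. The lists were not held to 5 CPM. In SeS O2 PN3 lungs the counts higher and lower were 1 and 0, 0 and 0, 0 and 3, 2 and 1, and 2 and 4. Without the liver-rich library the SeD counts were 3 and 0, 2 and 0, 3 and 1, 1 and 0, and 1 and 2. The stress genes were then at 21.4% higher, where 17.1% of all genes were called higher.

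Gdf15, a secreted signal of mitochondrial stress, had 3.80, 6.10 and 3.78 CPM in SeD O2 PN3 lungs, against 0.598, 0.914 and 1.05 CPM in SeD RA PN3 lungs (2.42, SE 0.316, adjusted p = 0.00013, edgeR). In SeS pups it had 4.40, 4.95 and 4.304 CPM, against 0.968, 0.385 and 0.533 CPM (2.86, SE 0.326, adjusted p = 0.000104). The groups were far apart in both diets, and the SeD value without the liver-rich library was 2.56 (adjusted p = 0.000225). Of the other stress genes in SeD pups, the chaperone Hspa9 was at 0.92 and the protease subunit Clpp at 0.41, and both stayed called without that library, at 0.31 (adjusted p = 0.0226, edgeR) and 0.33 (adjusted p = 0.0251). The cochaperone Hspe1 at 0.65 and the transcription factor Atf5 at 1.79 did not: Atf5 had 297 CPM in the liver-rich library and 39.2 and 39.3 CPM in the other 2, against 36.0, 36.1 and 36.7 CPM in SeD RA lungs.

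Among regulators, the coactivator Ppargc1a, a known driver of mitochondrial biogenesis, had 18.3, 11.4 and 8.82 CPM in SeD O2 PN3 lungs, against 6.64, 6.18 and 6.47 CPM in SeD RA PN3 lungs (1.00, SE 0.228, adjusted p = 0.00317, edgeR; 0.68 without the liver-rich library, adjusted p = 0.0206). In SeS pups it had 11.6, 10.1 and 10.1 CPM, against 5.84, 6.40 and 6.58 CPM (0.76, SE 0.228, adjusted p = 0.0196). The groups did not overlap in either diet. The ETS factor Gabpa fell in SeD pups, with 82.4, 89.2 and 88.3 CPM under O2 against 114, 116 and 110 CPM in RA (-0.39, SE 0.0844, adjusted p = 0.00249, edgeR; -0.33 without that library, adjusted p = 0.0113). Epas1, which encodes HIF-2 alpha, fell in SeD pups (-0.60, SE 0.147, adjusted p = 0.00459, edgeR), with 594, 712 and 679 CPM under O2 against 873, 1111 and 1017 CPM in RA, and was at -0.50 without that library (adjusted p = 0.0252). The lipid-sensing receptor Ppara, at 2.90 in SeD pups, had 48.4 CPM in the liver-rich library and 1.80 and 1.69 CPM in the other 2, against 2.85, 2.04 and 2.03 CPM in RA, and was at -0.38 without it. In SeS pups the coactivator Pprc1 and the factors Myc, Yy1 and Ppard were called lower, at -0.62, -0.53, -0.42 and -0.36, and the muscle regulator Perm1 higher, at 1.51.

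Of the genes that act on mitochondrial DNA, the RNA polymerase Polrmt fell in SeS pups at PN3, with 12.7, 11.8 and 12.8 CPM under O2 against 18.1, 20.4 and 19.2 CPM in RA (-0.63, SE 0.14, adjusted p = 0.00447, edgeR), with the DNA polymerase Polg at -0.52 and the helicase Twnk at -0.57. The groups did not overlap for Polrmt. In SeD pups the topoisomerase Top1mt was at 1.08, with 25.6 CPM in the liver-rich library and 10.4 and 8.27 CPM in the other 2, against 7.32, 6.91 and 6.62 CPM, and at 0.45 without it (adjusted p = 0.0246, edgeR). Cycs, the cytochrome c that links complexes III and IV, was at 0.42 in SeD pups, and Cox17, a copper chaperone of complex IV, at 0.37, and both stayed called without that library (0.41, adjusted p = 0.0288, and 0.36, adjusted p = 0.0312, edgeR). The electron transfer flavoproteins Etfa and Etfb, at 0.71 and 0.76, did not. Of the citric acid cycle genes Suclg1 was at 0.65 in SeD pups and stayed called at 0.34 without it (adjusted p = 0.0259), and Sucla2 was called at 0.35 in SeS pups and at 0.33 in SeD pups, where it was no longer called without that library (0.27, adjusted p = 0.0921).

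At PN1 in SeD pups 1 gene of each of 4 lists rose and 0 of the stress genes: the membrane insertase Oxa1l at 0.53 (adjusted p = 0.0136, edgeR), the RNA processing enzyme Pnpt1 at 0.40 (adjusted p = 0.0309), the citric acid cycle enzyme Idh3a at 0.39 (adjusted p = 0.0322) and the antioxidant regulator Nfe2l2 at 0.48 (adjusted p = 0.0495). These were 2%, 5.56%, 5.88% and 5.56% of their lists, each share resting on 1 gene. In that comparison 1.34% of all genes, and 2.2% of those with at least 5 CPM, were called higher. Without SeD RA PN1 replicate 2 the 5 lists had 0 genes called higher and 2 lower, both regulators. In SeS pups at PN1 0 genes of the 5 lists were called by edgeR, and 2 had an unadjusted p below 0.05.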

How the data were processed

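RNA of 24 lungs was made into stranded poly(A) libraries and sequenced as paired ends on a NextSeq 2000. The authors trimmed reads with Trimmomatic, mapped them to GRCm39 with HISAT2 and deposited raw counts per gene from featureCounts, with FastQC for quality control, as the submitters' processing notes and the methods state. Whether counting used strand, and how reads with several matches were treated, is not given in the sources used here. The deposited table of filtered normalized values and the authors' comparison tables, which hold DESeq2 fold changes and p-values, were not used.

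Groups followed the sample titles, also for SeS O2 PN1 replicate 2, whose oxygen label conflicts with its title. Counts were scaled by TMM and tested with edgeR 4.0.16 (quasi-likelihood, all 8 groups in 1 fit) in R 4.3.3, after filterByExpr with a minimum count of 10 and a total of 15, for 14 comparisons. Calls needed a Benjamini-Hochberg adjusted p below 0.05 and an absolute log2 fold change above 0.25. CPM values are TMM-scaled. Tables and figures were made with Python 3.11.15, pandas 2.3.3 and matplotlib 3.10.9. The test was checked on simulated counts with planted changes larger than most of those called among the members. That check does not bear on the smaller changes. DESeq2 1.42.0, RLE scaling, other filters, fits of fewer samples, a replicate block and left-out libraries were run as alternatives. Members named were the mitochondrial genes, the Sdh genes, the isoform sets of complex IV, in each comparison up to 5 called members with the highest and up to 5 with the lowest log2 fold change or, with fewer than 3 calls, the 3 with the smallest p, and the genes at the 5 CPM limit; from the pathway lists, up to 4 called genes with the smallest p. Others were chosen after their values were seen. Members and lists were chosen with earlier results of these data known.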

Additional observations from a re-analysis of the deposited data

How the results depend on the processing

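The counts of members called were not stable. With O2 against RA in SeS at PN3 (13 called), RLE size factors gave 37, DESeq2 43, a filter at 5 CPM 46, a fit of only the groups compared 46, and the fit without the 3 libraries richest in Alb (SeD O2 PN3 replicate 1 and SeD O2 PN1 replicates 1 and 2) 24. The same settings, in the same order, gave 66, 69, 74, 15 and 19 in SeD at PN3 (38 called), and 15, 36, 25, 0 and 52 in SeD at PN1 (9 called), where moving the library with conflicting labels to SeS RA PN1 gave 1. In the comparisons with 0 calls, SeD against SeS in O2 at PN3 had 4 with the 5 CPM filter and 10 with DESeq2. PN3 against PN1 in SeD O2 had 2 with that filter, 8 with DESeq2, 1 with nuclear genes only and 1 without the Alb-rich libraries. Without those libraries, SeD against SeS had 1 call in RA and 1 in O2 at PN1, and the difference of O2 effects had 1 at PN1. PN3 against PN1 had 1 call in SeS RA with DESeq2 and 1 in SeS O2 with only the groups compared. The cause was not tested. Shares of all genes called are not given for these settings or for the left-out libraries below. The counts therefore cannot tell a change in the members from a change over all genes.

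Leaving out 1 library gave 4 to 34 calls in SeS at PN3, 11 to 52 in SeD at PN3 and 0 to 51 in SeD at PN1. SeD against SeS ranged from 0 to 10 in O2 at PN3 (8 without SeD O2 PN3 replicate 2 and 10 without replicate 3) and from 0 to 3 in RA at PN1 (3 without SeD RA PN1 replicate 3). PN3 against PN1 ranged from 0 to 5 in SeD O2 (5 without SeD O2 PN3 replicate 3) and from 0 to 2 in SeD RA (2 without SeD RA PN1 replicate 3). The SeD PN1 count was also 1 without SeD O2 PN1 replicate 3, 26 without SeD O2 PN1 replicate 2, 23 without SeD O2 PN3 replicate 3, 5 without SeD RA PN1 replicate 1, and 4 without SeS O2 PN3 replicate 2, SeS O2 PN1 replicate 1 or 3, or SeS RA PN1 replicate 3. The SeS PN3 count was also 5 without SeS O2 PN3 replicate 2, 6 and 7 without SeS RA PN3 replicates 2 and 3, 26 without SeD O2 PN3 replicate 3, 21 without SeD O2 PN1 replicate 3, and 24 without SeS O2 PN1 replicate 2 or SeS RA PN1 replicate 1.

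Replicate numbers did not pair the samples: same-numbered libraries had a mean correlation of deviations of -0.0503 at PN3 and 0.00407 at PN1. With the replicate number as a block 13, 37 and 7 members were called in SeS at PN3, SeD at PN3 and SeD at PN1, and 0 in each other comparison. A robust estimate of the spread, chosen after seeing the data, gave 13, 37 and 10. Over 26 named calls and 34 settings, 740 of 877 values kept the call, 137 lost it and 0 reversed. Calls lost under 0 settings were those of Ndufa4l2 in both diets, mt-Nd1 in SeS and Cox6b1 in SeD, all at PN3.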
